A study of Arabidopsis thaliana with 6 samples.

Results

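The transcripts described here come from 10 *Arabidopsis thaliana* genes of starch turnover, chosen by their gene identifiers from a table of 28775 genes. They are *GWD1*, *PWD*, *SEX4*, *LSF1*, *BAM1*, *BAM3*, *ISA3*, *DPE1* and *DPE2*, which act in starch breakdown, and *GBSS1*, which acts in synthesis. All 10 passed the filter on low counts, as did 19121 genes in all. Total RNA without ribosomal RNA was sequenced from 3 libraries of *brr2a*-2, which the sample labels call the cao mutant, and from 3 libraries of Col, the Col-0 wild type. Both genotypes were 15 days old, grew side by side in short days without further treatment and were harvested 1 h before darkness. *brr2a*-2 carries a missense change, threonine to isoleucine, in BRR2a, an RNA helicase of the spliceosome. It is a single allele from a chemical mutagenesis screen, isolated in a line with a tagged *MSI1* transgene and backcrossed to Col. The labels name rosette leaves and the methods name seedlings, so the tissue is not settled.

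Leaf starch is made in the chloroplast during the day and broken down to maltose and glucose in the following night. Breakdown begins when glucan dikinases phosphorylate the granule surface, after which β-amylases and debranching enzymes attack it, phosphatases remove the phosphate groups, and glucanotransferases process the malto-oligosaccharides and maltose. In wild-type leaves many transcripts of breakdown enzymes are known to be most abundant towards dusk, and that of *GBSS1* towards dawn, under control of the circadian clock.

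Gene counts summed to between 18692830 and 23184873 in *brr2a*-2 libraries and to between 19468030 and 29830638 in Col libraries. The 4 leaf markers summed to between 8900 and 9300 CPM (TMM-scaled counts per 1000000 gene counts) in *brr2a*-2 and to between 3670 and 10900 CPM in Col, the lowest being Col library 1. The 5 root markers summed to 1.59 to 3.95 CPM in *brr2a*-2 and 2.8 to 7.1 CPM in Col, with *NRT2.1* at 0 in every *brr2a*-2 library. The 4 flower markers summed to 0.6 to 2.61 CPM in *brr2a*-2 and 0.838 to 0.936 CPM in Col, with *AP3* at 0 in all 6 libraries. The part of these differences in the results below was not tested. Col library 1 stood apart: the mean root-mean-square log2 difference from the other libraries of the genotype was 0.546 to 0.674 for *brr2a*-2 libraries, against 0.887 for Col library 1 and 0.758 and 0.796 for Col libraries 2 and 3, and in 1315 genes, 6.88% of those tested, it was over 2 times both other Col libraries. Among the 10 genes, those whose call or size turned on it are given with and without it. *BRR2a* itself averaged 165 ± 9.83 CPM in *brr2a*-2 and 139 ± 15.3 CPM in Col, and the libraries overlapped, so its level does not check the labels of a missense allele. In bulk RNA, fewer cells of a type and less RNA per cell cannot be told apart.

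Of the 10 starch turnover genes, 6 had a lower level in every *brr2a*-2 library than in any Col library, 1 had a higher level in every one, and 3 overlapped. Among all genes tested, 10.2% were below without overlap and 10.8% above. The 6 lower genes, *GWD1*, *PWD*, *SEX4*, *ISA3*, *DPE1* and *DPE2*, all act in breakdown, and the higher one was *GBSS1*. The median log2 fold change of the 10 genes was -0.67, against -0.04 over all genes tested, with 7 values below 0 and 3 above. The quasi-likelihood test of edgeR, adjusted over all genes by Benjamini-Hochberg, called 0 of the 10 genes at adjusted p below 0.05 with a log2 change no smaller than 1 in either direction, and called 0% of all genes in either direction. At an unadjusted p under 0.05, 6 of the 10 were lower and 1 was higher, against 7.47% and 6.93% of all genes. DESeq2 on the same 6 libraries called 4 genes lower, *PWD*, *SEX4*, *ISA3* and *DPE1*, and 0 higher, against 0.905% and 1.28% of all genes. With no minimum fold change, DESeq2 also passed *GWD1* and *DPE2*, which makes 6 lower and 0 higher, against 1.39% and 1.9% of all genes. Without Col library 1, DESeq2 called 0 of the 10 lower and 1 higher, *GBSS1*, at the fold threshold (0.639% and 1.54% of all genes), and 5 lower and 1 higher with no minimum fold change (1.21% and 2.06%). In that fit the log2 fold changes of *PWD*, *SEX4*, *ISA3* and *DPE1* were -0.96, -0.99, -0.96 and -0.98, just short of the threshold, with adjusted p by DESeq2 of 0.000274, 0.0127, 0.00154 and 0.0292.

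**Figure D1:**
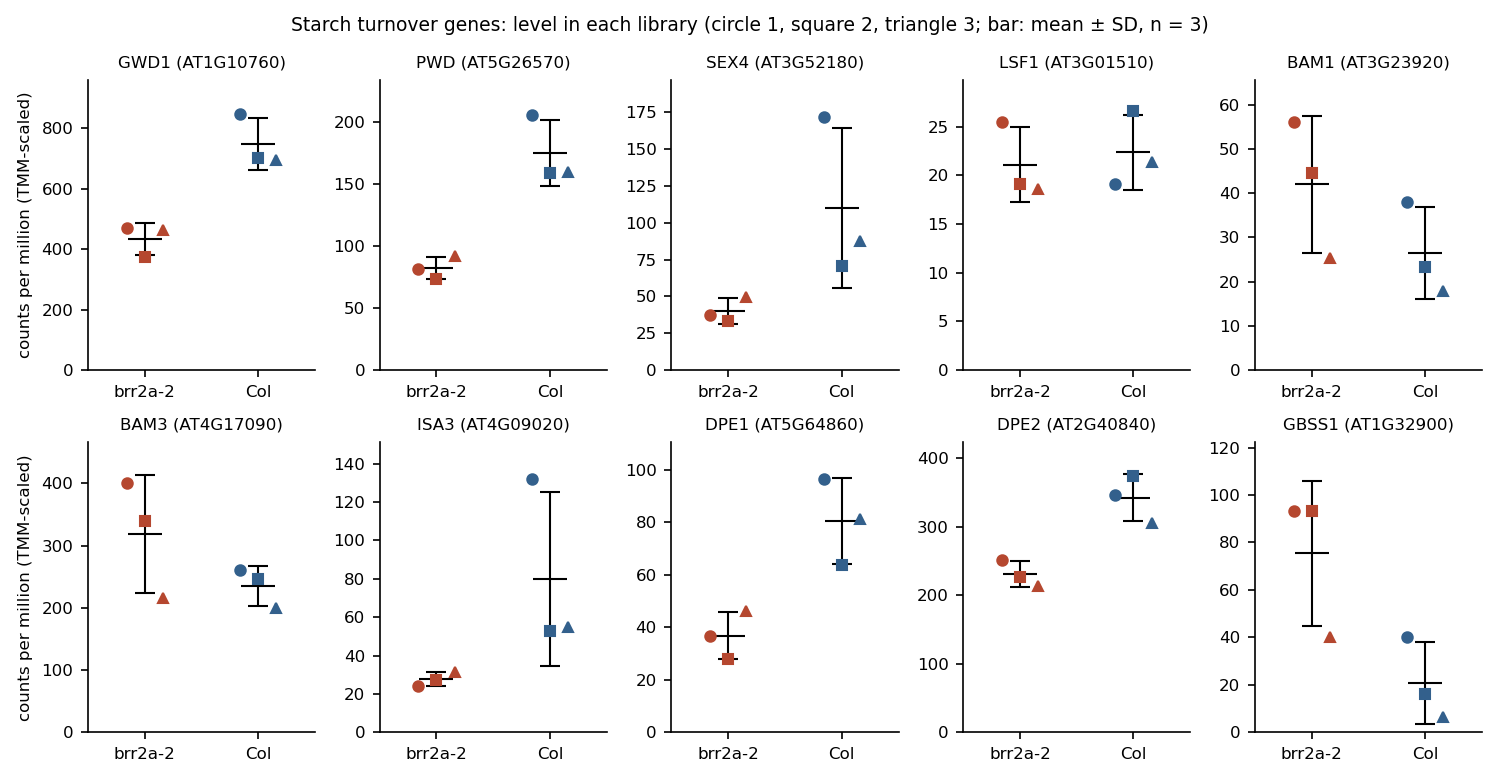
Level of each starch turnover gene in CPM (vertical axes, each from 0) in the 3 *brr2a*-2 libraries (left of each panel) and the 3 Col libraries (right). Symbols mark library 1 (circle), 2 (square) and 3 (triangle), and bars the mean ± SD. GWD1, PWD, SEX4, ISA3, DPE1 and DPE2 lie lower in all *brr2a*-2 libraries, and Col library 1 is the highest Col point in 5 of these 6.

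The glucan dikinases were both lower in *brr2a*-2. *GWD1* (AT1G10760, chr1:3580830-3590928, minus strand, positions here and below in TAIR10.1), which encodes the glucan, water dikinase that starts phosphorylation of the granule, had 469, 374 and 463 CPM in *brr2a*-2 libraries 1, 2 and 3, against 849, 701 and 695 CPM in Col libraries 1, 2 and 3. The highest *brr2a*-2 library was thus well under the lowest Col library. The averages were 435 ± 53.1 CPM in *brr2a*-2 and 748 ± 87.2 CPM in Col (SD, n = 3 each), and the log2 fold change was -0.78 ± 0.21 (SE) with a 95% interval of -1.26 to -0.3. *PWD* (AT5G26570, chr5:9261479-9267732, plus strand), whose product phosphorylates glucans already phosphorylated by GWD1, had 81.5, 73.6 and 92 CPM in *brr2a*-2, against 206, 159 and 160 CPM in Col. Its log2 fold change was -1.09 ± 0.19, with an interval of -1.53 to -0.64, the narrowest error of the genes with a size of 1 or more. The adjusted p of *PWD* was 0.164 by edgeR and 3.4e-05 by DESeq2, and over all alternatives it ranged between 3.4e-05 and 0.634. For *GWD1* it was 0.221 by edgeR and 0.00397 by DESeq2, with a range of 0.00397 to 0.699.

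The 2 phosphatase-like genes differed from each other in pattern. *SEX4* (AT3G52180, chr3:19349600-19353728, minus strand), which encodes the main phosphoglucan phosphatase, had 37.4, 33.4 and 49.8 CPM in *brr2a*-2, against 172, 70.9 and 87.7 CPM in Col. The genotypes did not overlap, and Col library 1 was 2.17 times the mean of the other Col libraries. The log2 fold change was -1.45 ± 0.36 with all libraries and -0.98 without Col library 1. *LSF1* (AT3G01510, chr3:198322-201810, minus strand), which encodes a relative of SEX4 that binds starch, had 25.5, 19.1 and 18.6 CPM in *brr2a*-2, against 19.1, 26.6 and 21.4 CPM in Col. Its libraries overlapped fully, and the log2 fold change was -0.08 ± 0.21 with an interval of -0.57 to 0.4. *LSF1* overlaps AT3G01500 on the same strand, a gene with 11848 to 29836 counts per library, so its counts are uncertain. The adjusted p of *SEX4* was 0.205 by edgeR and 0.00649 by DESeq2, with a range of 0.00649 to 0.699 over the alternatives.

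The β-amylase genes, whose products release maltose from the granule, were not lower. *BAM3* (AT4G17090, chr4:9604962-9607402, minus strand), the main leaf enzyme at night, had 400, 340 and 215 CPM in *brr2a*-2, against 260, 246 and 199 CPM in Col. *BAM1* (AT3G23920, chr3:8641181-8644449, plus strand), a plastid enzyme known for its part in guard cells and under stress, had 56.1, 44.6 and 25.4 CPM in *brr2a*-2, against 38.1, 23.3 and 18 CPM in Col. In both genes *brr2a*-2 library 3 lay within the Col range and the other *brr2a*-2 libraries above it. Library 3 was also the lowest of each genotype in both genes. The log2 fold changes were 0.44 ± 0.27 for *BAM3* and 0.67 ± 0.37 for *BAM1*, with intervals of -0.19 to 1.06 and -0.2 to 1.53. Without Col library 1 the value of *BAM1* was 1.02. *BAM3* overlaps AT4G06665 and AT4G17085 on the other strand, and AT4G17085 had only 6 to 19 counts per library.

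*ISA3* (AT4G09020, chr4:5783909-5789100, plus strand), which encodes the isoamylase that debranches starch during breakdown, had the lowest log2 fold change of the 10 genes. Its level was 24.4, 27.2 and 31.6 CPM in *brr2a*-2, against 132, 52.6 and 54.7 CPM in Col. The *brr2a*-2 libraries lay close together, and Col library 1 was 2.45 times the mean of the other Col libraries. The log2 fold change was -1.52 ± 0.38 with all libraries and -0.95 without Col library 1. The adjusted p was 0.207 by edgeR and 0.00681 by DESeq2, with a range of 0.00154 to 0.707 over the alternatives. The low end came from DESeq2 without Col library 1.

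Both glucanotransferase genes were lower in *brr2a*-2. *DPE1* (AT5G64860, chr5:25925173-25928879, minus strand), whose product recycles maltotriose in the plastid, had 36.7, 27.9 and 46.1 CPM in *brr2a*-2, against 96.7, 63.9 and 81.3 CPM in Col, without overlap. Its log2 fold change was -1.13 ± 0.24, with an interval of -1.7 to -0.55. *DPE2* (AT2G40840, chr2:17044932-17051062, plus strand), whose product uses maltose in the cytosol, had 252, 227 and 214 CPM in *brr2a*-2, against 347, 374 and 306 CPM in Col. Its libraries did not overlap either, and its log2 fold change of -0.57 ± 0.18 was the smallest in size among the 6 lower genes. The adjusted p of *DPE1* was 0.183 by edgeR and 0.00403 by DESeq2, with a range of 0.00403 to 0.634, and that of *DPE2* was 0.26 by edgeR and 0.0423 by DESeq2, with a range of 0.0423 to 0.721. Without Col library 1, *DPE2* no longer passed by DESeq2, with an adjusted p of 0.103 at a log2 fold change of -0.56.

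*GBSS1* (AT1G32900, chr1:11920390-11923866, minus strand), which encodes the granule-bound synthase that makes amylose, was the only one of the 10 with all *brr2a*-2 libraries above. Its level was 93.1, 93.1 and 40.3 CPM in *brr2a*-2, against 40.1, 16 and 6.49 CPM in Col. The separation was narrow, since *brr2a*-2 library 3 and Col library 1 were nearly equal, and it was lost without scaling factors. The averages were 75.5 ± 30.5 CPM in *brr2a*-2 and 20.9 ± 17.3 CPM in Col (SD, n = 3 each), and the log2 fold change was 1.85 ± 0.64 with an interval of 0.34 to 3.36. Without Col library 1 it was 2.74. The adjusted p was 0.278 by edgeR and 0.0503 by DESeq2. Over the alternatives it ranged between 7.06e-06, by DESeq2 without Col library 1, and 0.725.

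Per kilobase of annotated exon length, *BAM3* was the highest of the 10 in *brr2a*-2 at 151 CPM per kilobase, ahead of *GWD1* at 86.4 and *DPE2* at 67.8. In Col, *GWD1* came first at 149 CPM per kilobase and *BAM3* followed at 112. *LSF1* was the lowest in *brr2a*-2 at 8.48 CPM per kilobase and had 9 in Col. *GBSS1* stood at 32.9 CPM per kilobase in *brr2a*-2 and 9.1 in Col, and *ISA3* at 10.1 in *brr2a*-2 and 29 in Col, so that their order was opposite in the 2 genotypes. In Col, *LSF1*, *GBSS1* and *BAM1* (10.5) lay within their spread of each other. The levels of *DPE1* and *SEX4* were close in *brr2a*-2, at 18.2 and 20.2 CPM per kilobase, and those levels were within their spread.

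Of the 10 genes, 3 hold the evening element, a motif bound by clock proteins of the CCA1 type, within the 500 bases before their annotated start. The motif searched was AAAATATCT on both strands, and 4.47% of 26709 promoters of that length hold it. The 3 genes, *GWD1*, *PWD* and *ISA3*, were among the 6 that were lower. The stretches are shown because they carry this motif, with the motif in capitals and the gene's strand read 5′ to 3′ (TAIR10.1).
GWD1, chr1:3591352-3591400, minus strand: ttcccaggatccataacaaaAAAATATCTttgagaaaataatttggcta
PWD, chr5:9261426-9261474, plus strand: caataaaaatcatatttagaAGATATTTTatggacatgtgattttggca
ISA3, chr4:5783850-5783898, plus strand: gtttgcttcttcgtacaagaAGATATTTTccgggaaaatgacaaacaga
In *PWD* and *ISA3* the motif is on the opposite strand and begins 33 and 39 bases before the start, and in *GWD1* it lies 452 bases before it. The related CCA1-binding site AAAAATCT, searched on both strands, was found in *PWD*, *ISA3* and *DPE2* (12.6% of promoters), and the G-box CACGTG in *LSF1*, *BAM1* and *DPE1* (9.46% of promoters). The 2 G-boxes of *DPE1* lie 35 and 24 bases before the start. *SEX4*, *BAM3* and *GBSS1* have none of the 3 motifs in this window. A match describes letters and was not tested for binding.

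Genes of the circadian clock were read in the same libraries. The morning genes *CCA1*, *LHY* and *PRR9*, which encode repressors that are most abundant after dawn, were higher in all *brr2a*-2 libraries. *CCA1* had 88.3, 73.6 and 24.3 CPM in *brr2a*-2, against 4.53, 10.4 and 2.69 CPM in Col, a log2 fold change of 3.40 ± 0.65. *LHY* and *PRR9* had log2 fold changes of 2.83 ± 0.49 and 2.23 ± 0.42, and DESeq2 called 3 of the 3 higher while edgeR called 0, at adjusted p of 0.164 to 0.173. Over all genes, DESeq2 called 1.28% higher and 0.905% lower, and 10.8% were above and 10.2% below without overlap. Among 5 evening genes, *LUX* had 25.2, 18.6 and 38 CPM in *brr2a*-2, against 68.4, 46.8 and 92.4 CPM in Col, the only one that DESeq2 called lower, and *TOC1* had 85.1, 60 and 82.6 CPM in *brr2a*-2, against 174, 107 and 130 CPM in Col. *GI* was at 260, 227 and 240 CPM in *brr2a*-2, against 209, 248 and 264 CPM in Col, with overlap. *PRR7* and *PRR5*, which follow *PRR9* during the day, had log2 fold changes of 0.65 ± 0.26 and 0.43 ± 0.25, *ELF3* one of -0.37 ± 0.15, and *ELF4*, under 5 CPM in every library, one of -2.25 ± 0.92 with overlap. Whether the clock values account for those of the starch genes was not tested.

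**Figure D2:**
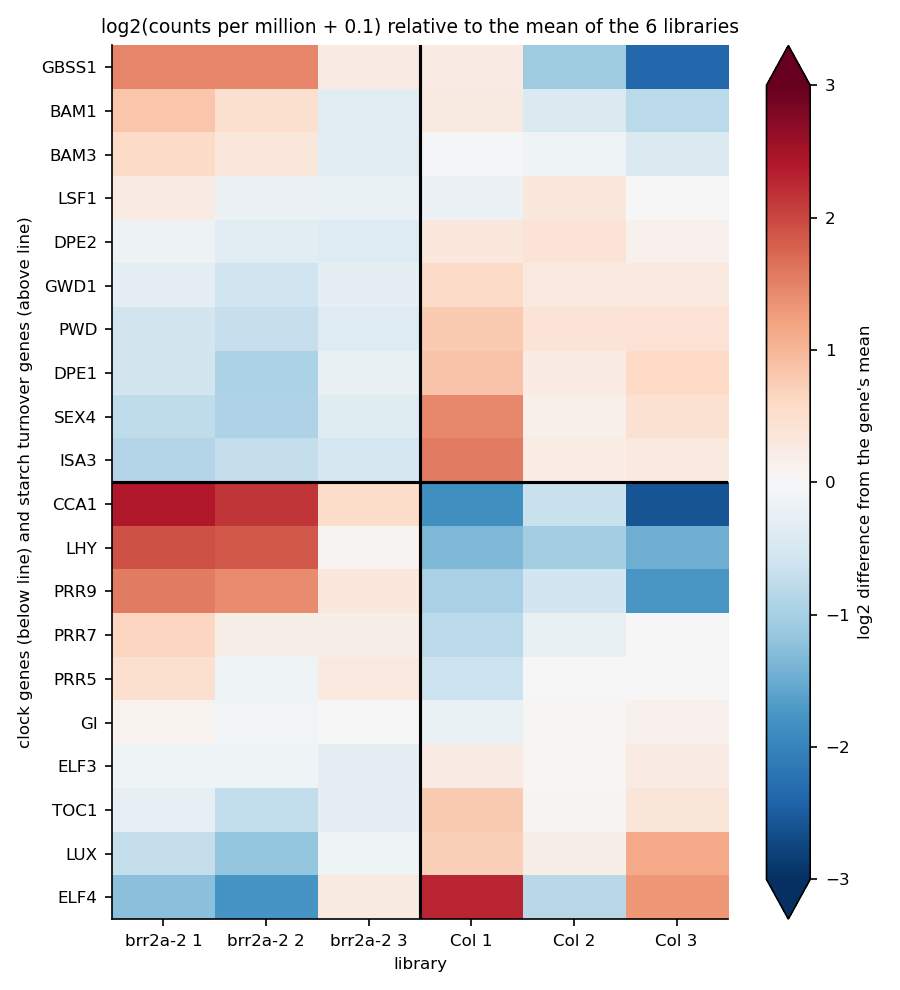
Heat map of log2(CPM + 0.1) relative to each gene's mean over the 6 libraries (red above, blue below), with *brr2a*-2 libraries on the left and Col libraries on the right, starch turnover genes above the line and clock genes below. CCA1, LHY, PRR9 and GBSS1 are red in *brr2a*-2 libraries 1 and 2 and paler in library 3, and the rows of ISA3 and SEX4 are reddest in Col library 1.

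The wider pathway was read from lists of 17 further breakdown genes and 21 synthesis genes, 36 of which passed the filter (*BAM5* and *AMY1* did not). Their median log2 fold change was -0.34, with 24 values below 0 and 12 above. edgeR called 0 of the 36 in either direction. The background shares are those given for the 10 genes. At an unadjusted p under 0.05, 13 were lower and 2 higher, and 15 were below and 3 above without overlap. DESeq2 called 1 lower, *LSF2*, and 1 higher, *BAM9*. With no minimum fold change it passed 5 lower, *LSF2*, *PHS1*, *PHS2*, *SBE2.1* and *SBE2.2*, and 1 higher, *BAM9*. Without Col library 1, DESeq2 called 0 lower and 2 higher, *GWD2* and *BAM9*. *GWD2*, a relative of *GWD1*, had 8.63, 9.9 and 8.57 CPM in *brr2a*-2, against 20.1, 4.7 and 3.96 CPM in Col, so that its log2 fold change was -0.10 with all libraries and 1.05 without Col library 1.

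Among the breakdown genes the values ran in both directions. *LSF2*, another phosphoglucan phosphatase, had 9.92, 6.71 and 7.18 CPM in *brr2a*-2, against 22.7, 22.8 and 12.2 CPM in Col, a log2 fold change of -1.28 ± 0.29. The glucan phosphorylase genes *PHS1* of the plastid and *PHS2* of the cytosol were lower without overlap, with log2 fold changes of -0.74 ± 0.21 and -0.90 ± 0.20, and *PHS2* averaged 318 ± 15.1 CPM in *brr2a*-2 and 594 ± 90.6 CPM in Col (SD, n = 3 each). *BAM9*, which encodes a β-amylase-like protein without catalytic activity, had 98.7, 31.6 and 22.6 CPM in *brr2a*-2, against 8.61, 7.87 and 9.55 CPM in Col. All *brr2a*-2 libraries of *BAM9* were above Col, but library 1 was far above the others, and the log2 fold change was 2.55 ± 0.55. *BAM6* and *BAM4* had log2 fold changes of 0.86 ± 0.46 and 0.42 ± 0.22 with overlap.

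Of the synthesis genes, 9 were below and 2 above without overlap. The branching enzyme genes *SBE2.1* and *SBE2.2* averaged 81.5 ± 2.70 and 77.8 ± 8.87 CPM in *brr2a*-2, against 163 ± 26.7 and 123 ± 6.32 CPM in Col (SD, n = 3 each). *LESV*, whose product binds starch, had 7.39, 6.71 and 10.6 CPM in *brr2a*-2, against 25.4, 11 and 15.6 CPM in Col, a narrow separation. *SS2*, a starch synthase gene, was above in all *brr2a*-2 libraries at 55.7, 38.2 and 39.7 CPM, against 18.5, 34.5 and 23.9 CPM in Col, a log2 fold change of 0.80 ± 0.27. *APL3* and *APL4*, which encode large subunits of ADP-glucose pyrophosphorylase, had the lowest log2 fold changes, -1.41 ± 0.83 and -1.45 ± 0.72, and Col library 1 alone was high: *APL3* had 8.35, 12.7 and 7.34 CPM in *brr2a*-2, against 60.7, 7.77 and 6.91 CPM in Col. *PTST3*, which acts in granule initiation, and *APL2* had log2 fold changes of 0.30 ± 0.14 and 0.13 ± 0.24.

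**Figure D3:**
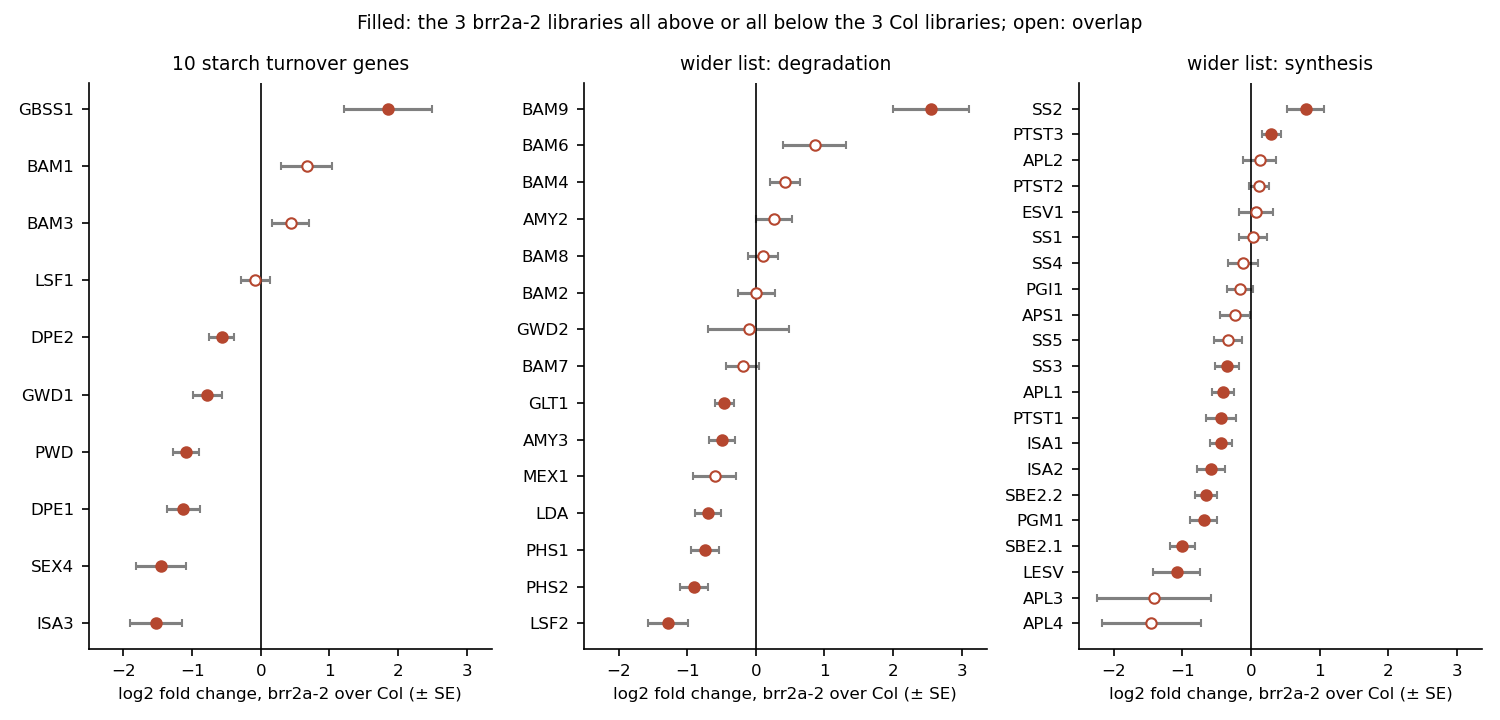
Log2 fold change of *brr2a*-2 over Col with its SE (horizontal axis) for the 10 starch turnover genes (left), the other breakdown genes (middle) and the synthesis genes (right), ordered by value. Filled points have no overlap between the genotypes, and GBSS1 at 1.85 and BAM9 at 2.55 are the farthest to the right.

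Introns were counted apart from genes, and their signal is given as intron counts per 100 gene counts. This share sums all introns of a gene without scaling to intron length, so it is not the fraction of unspliced transcripts. It serves to compare the genotypes within the same genes. The introns of *SEX4*, *LSF1* and *BAM1* were left out, since intron names of chromosome 3 do not follow their genes: across genes, the rank correlation of intron with gene counts was 0.323 there and 0.856 to 0.876 on the other chromosomes. Over the other 7 genes, intron counts per 100 gene counts were 6.69, 6.98 and 8.29 in *brr2a*-2, against 2.68, 4.22 and 4.28 in Col. The averages were 7.32 ± 0.854 in *brr2a*-2 and 3.73 ± 0.907 in Col (SD, n = 3 each), with an exact two-sided permutation p of 0.1, the smallest that 3 against 3 libraries can give. Over 10902 genes outside chromosome 3 the averages were 8.87 ± 0.544 in *brr2a*-2 and 6.49 ± 0.858 in Col. The ratio of *brr2a*-2 to Col was 1.96 over the 7 genes and 1.37 over those genes. The median log2 ratio over single genes was 1.16 and 0.51.

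By gene, 5 of the 7 had all *brr2a*-2 libraries above all Col libraries, and 0 had all below, against 41.4% and 0.468% of genes outside chromosome 3. *DPE1* had the highest share, 20.7, 21.6 and 22.6 intron counts per 100 gene counts in *brr2a*-2, against 5.12, 8.6 and 9.28 in Col. *GWD1* had 10.3, 11 and 10.1 in *brr2a*-2, against 3.06, 4.79 and 4.53 in Col. *PWD*, *ISA3* and *DPE2* averaged 11.4 ± 1.0, 12.2 ± 0.435 and 5.74 ± 0.938 in *brr2a*-2, against 5.12 ± 1.26, 6.14 ± 2.25 and 2.26 ± 1.14 in Col (SD, n = 3 each). *BAM3* and *GBSS1* had the lowest shares, 2.26 ± 0.248 and 1.49 ± 0.457 in *brr2a*-2, against 1.76 ± 0.636 and 0.745 ± 0.424 in Col, and both overlapped. They also have the fewest introns of the 7 genes, 3 and 12, and the share is not scaled to intron number or length. The order of genes by share is therefore not an order of splicing.

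**Figure D4:**
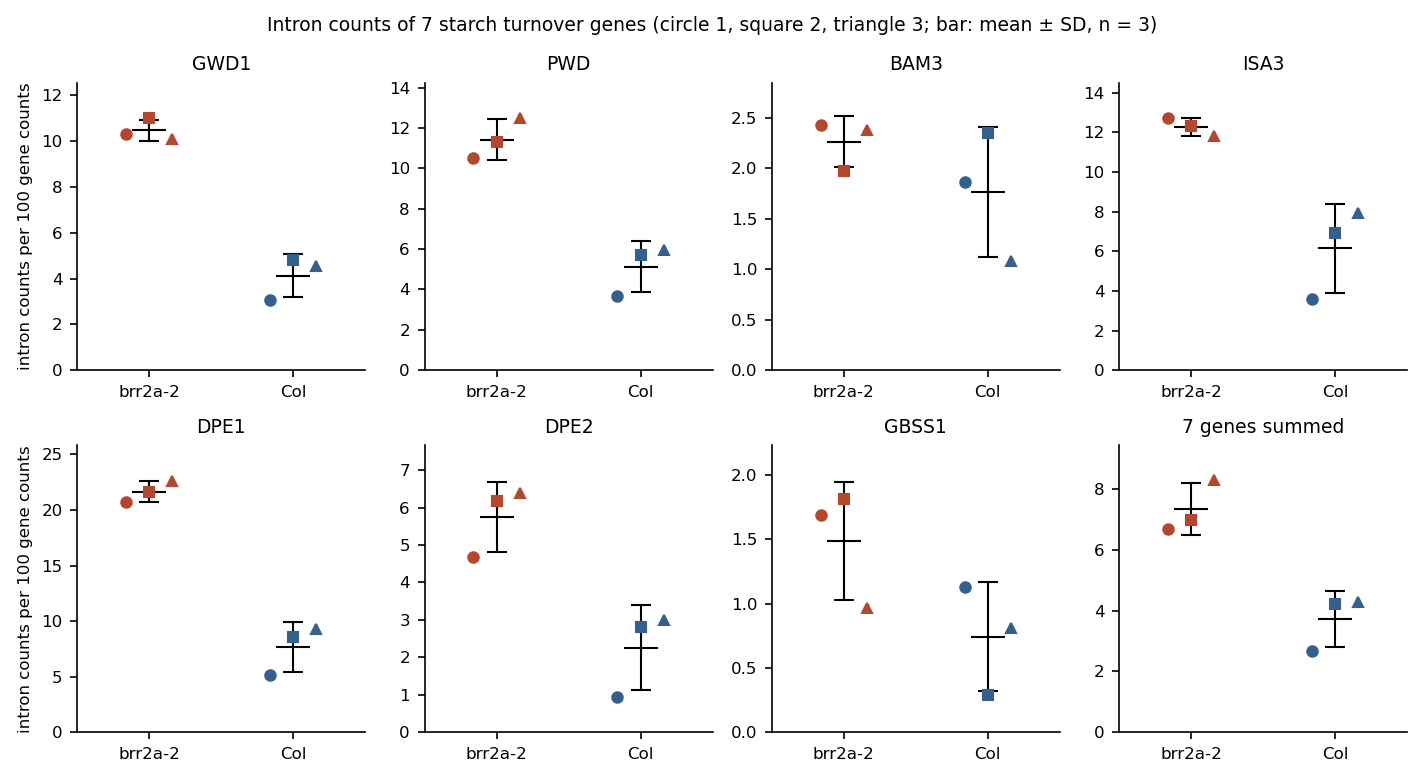
Intron counts per 100 gene counts (vertical axes, each from 0) for the 7 genes outside chromosome 3 and their sum, *brr2a*-2 libraries left and Col libraries right, with mean ± SD. The genotypes are apart in GWD1, PWD, ISA3, DPE1, DPE2 and the sum, and they overlap in BAM3 and GBSS1.

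This share has gene counts below the line, so a lower gene level raises it where intron counts stay the same. Scaled to the gene counts of the whole library instead (CPM), *GWD1* introns had 48.4, 41 and 46.6 CPM in *brr2a*-2, against 26, 33.6 and 31.5 in Col, and *DPE2* introns had 11.8, 14 and 13.7 in *brr2a*-2, against 3.29, 10.5 and 9.23 in Col. These 2 genes of the 7 were above without overlap on this scale too and 0 were below, against 37.3% and 1.33% of genes outside chromosome 3. *PWD* introns had 9.47 ± 1.78 in *brr2a*-2 and 8.73 ± 1.04 in Col, and *ISA3* introns 3.38 ± 0.32 in *brr2a*-2 and 4.23 ± 0.561 in Col (SD, n = 3 each), both with overlap, as had *DPE1*, *BAM3* and *GBSS1*. Summed over the 7 genes and scaled to library gene counts without TMM, the ratio of *brr2a*-2 to Col was 1.37. Its exact two-sided permutation p was 0.1, and *GWD1* held the most of these counts.

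Single introns were tested for a change beyond that of their gene. Libraries were scaled to their own intron counts, so a rise shared by most introns is taken out as well. Of 127 introns of the 7 genes, 54 had enough counts, and of those 43 had a log2 fold change beyond the gene above 0, against 43.2% of the 13811 introns tested outside chromosome 3. Their median was 0.68, against -0.10 over those introns. *GWD1* alone gave 27 of the 54 and 23 of the 43. Introns of a gene share its correction, so they are not separate observations. By gene, the introns above 0 ran from 0 of 3 in *BAM3* to 6 of 6 in *DPE1*. Without the correction for the gene, in the same scaling to intron counts, the medians were -0.13 and -0.02. Within that scaling the sign thus depends on this correction. With library sizes of the gene table and the correction kept, the medians were 1.3 and 0.51. In the corrected fit scaled to intron counts, edgeR called 0 of the 54, against 0.0362% of introns outside chromosome 3 called higher and 0% lower. At an unadjusted p under 0.05, 16 were higher and 0 lower, against 4.11% and 5.78%. DESeq2 called 1 higher and 0 lower, against 0.152% and 0.123%.

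The intron that DESeq2 called is the fourth of *DPE1* along the transcript, 60 bases long. It had 24, 15 and 26 counts in *brr2a*-2, against 8, 4 and 14 in Col, which is 3.02, 2.60 and 3.14 per 100 gene counts in *brr2a*-2, against 0.250, 0.292 and 0.909 in Col. The log2 fold change beyond the gene was 2.05 ± 0.51, with an adjusted p of 0.133 by edgeR and 0.0470 by DESeq2 (range 0.015 to 0.519 over the alternatives). The intron is shown whole because it is the only one called, and its first and last bases, the splice site dinucleotides, are in capitals (TAIR10.1).
DPE1 intron 4, chr5:25927933-25927992, minus strand: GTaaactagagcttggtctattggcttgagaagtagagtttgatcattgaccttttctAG
Next in order came intron 13 of *DPE2* (75 bases), with 18, 18 and 17 counts in *brr2a*-2, against 3, 11 and 3 in Col, and a log2 fold change of 1.79 ± 0.56. The 18th *GWD1* intron along the chromosome had 22, 33 and 28 counts in *brr2a*-2, against 13, 12 and 11 in Col, a log2 fold change of 1.63 ± 0.41. *GWD1* introns have no positions here, because the table holds 34 of them and the annotation 33.

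The lowest values were at the first *BAM3* intron, -0.80 ± 0.44, the second *ISA3* intron, -0.76 ± 0.56, and the 33rd *GWD1* intron along the chromosome, -0.62 ± 0.50, each with overlapping shares. The splice sites of the introns at either end are set side by side, with 3 exon and 12 intron bases at the donor and with the intron's splice dinucleotide in capitals.
DPE1 intron 4 donor: aagGTaaactagagc
DPE2 intron 13 donor, chr2:17048468-17048542, plus strand: cagGTtggaattatt
BAM3 intron 1 donor, chr4:9606620-9606717, minus strand: cagGTaatgaagcaa
ISA3 intron 2 donor, chr4:5784323-5784417, plus strand: aagGCacgtcttctt
The *ISA3* intron begins with GC in place of the usual GT, as do *ISA3* intron 20, *PWD* intron 15 and *DPE1* intron 7. Among the latter, only the *DPE1* intron had enough counts to be tested, at a log2 fold change of 0.24 ± 0.49. Introns with the most counts in their gene were mixed: *DPE1* intron 10 (76 bases) had 7.65 counts per 100 gene counts in *brr2a*-2 and 2.45 in Col, and *PWD* intron 13 (359 bases) had 2.86 and 1.06 for *brr2a*-2 and Col, both without overlap. *BAM3* intron 2 had 0.919 in *brr2a*-2 and 0.664 in Col, and *ISA3* intron 7 had 1.26 and 0.886 for *brr2a*-2 and Col, both with overlap. The most covered introns of *GWD1* and *DPE2* had 1.04 and 0.753 in *brr2a*-2, against 0.422 and 0.337 in Col, without overlap, and that of *GBSS1* had at most 12 counts in a library.

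**Figure D5:**
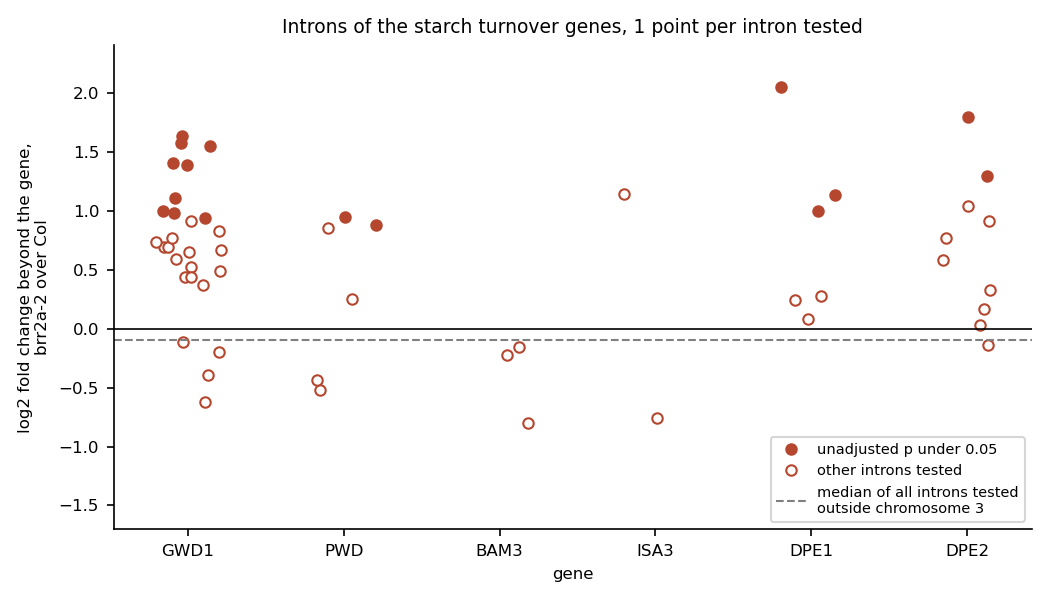
Log2 fold change beyond the gene, *brr2a*-2 over Col (vertical axis), for each of the 54 introns tested, grouped by gene. Filled points have an unadjusted p under 0.05, and the dashed line is the median of all introns tested outside chromosome 3, -0.10. GWD1 gives 9 of the 16 filled points, and the 3 BAM3 introns are all below 0.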

How the data were processed

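Per the methods and the submitters' processing notes, the authors trimmed reads with Trimmomatic 0.32, aligned them to TAIR10 with TopHat2 and counted them with HTSeq. The deposited tables hold raw counts per gene and per intron of the first isoform, 1 column per library, without normalization. The strand setting is not given in the sources used here, so opposite-strand overlaps cannot be separated. The labels call the replicates biological without naming separate cultures, so p-values measure the spread between libraries. Replicates differed by more than sampling noise (chi-square per gene of 26.1 to 105).

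Genotype was tested on all 6 libraries with edgeR 4.0.16 in R 4.3.3 (filterByExpr with a minimum count of 10, TMM, quasi-likelihood F-test, Benjamini-Hochberg over all features) and no covariate. CPM were TMM-scaled. A call meant adjusted p below 0.05 with a log2 change no smaller than 1 in either direction. In the intron fit, the gene's log2 fold change (prior count 2) was added to the offset of *brr2a*-2 libraries. The deposited intron numbers run along the chromosome, and introns are numbered here along the transcript, except those of *GWD1*, which keep the deposited number. Shares used genes with at least 30 intron counts. Procedures were tested on simulated counts with the same spread for every gene and no outlying library. That test therefore does not cover a library like Col library 1. Alternatives were DESeq2 1.42.0, 1 RUVg factor with 5000 control genes, a replicate block, other scalings and filters, and each library left out. DESeq2 with no minimum fold change, DESeq2 without Col library 1, overlap with a library left out, and introns without chromosome 3 were added after seeing the data. Positions, exon lengths and sequences come from RefSeq TAIR10.1. Figures were drawn with matplotlib 3.10.9.

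The genes named are all 10 starch turnover genes; of the wider lists, those called and the 3 highest and 3 lowest log2 fold changes in each; and the introns called, with the most counts in each gene, or among the 3 highest and lowest. *SBE2.1*, *SBE2.2* and *GWD2* were named after their values were seen. The genes and lists were chosen with earlier results of these data known.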

Additional observations from a re-analysis of the deposited data

How the results depend on the processing

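Every alternative that kept all 6 libraries left the median log2 fold change of the 10 genes below 0, and over all alternatives it lay between -0.75 and -0.62. Of single genes, only *LSF1* turned sign, to 0.06 without Col library 2, and with a library left out its values lay between -0.24 and 0.06. DESeq2 called 4 of the 10 lower, and 6 with no minimum fold change. Of the 36 wider genes it called 1 lower and 1 higher, and 5 lower and 1 higher with no minimum fold change. DESeq2 without Col library 1 called 1 of the 10 higher (*GBSS1*) and 2 of the wider genes higher. With 1 RUVg factor edgeR called 1 of the 10 higher, *GBSS1*, at a log2 fold change of 2.01 and an adjusted p of 0.0373, against 0.0261% of all genes called higher. Genes above without overlap numbered 0 without scaling factors (7.79% of all genes) and 1 to 3 with a library left out (12.4% to 18.2%). They were *BAM1*, *BAM3* and *GBSS1* without *brr2a*-2 library 3 (18.2%), and *BAM1* and *GBSS1* without Col library 1 (17.7%). Called member introns numbered 15 with library sizes of the gene table, where the median of introns outside chromosome 3 moved to 0.51 and 2.84% of them were called higher, 2 without a filter on low counts (0.0829%) and 1 by DESeq2 (0.152%). The median of the member introns was -0.13 without the gene correction, 1.3 with library sizes of the gene table and 0.36 without Col library 1. Leaving out scaling factors moved the median of all genes to -0.11. The replicate block called 0 of the 10 genes, 0 of the wider genes and 0 of the member introns, as did the fit without it, with medians of -0.67 and 0.74. The numbers were not treated as pairs, since the deviations of same-numbered libraries correlated at 0.0416, 0.188 and 0.418, and not every library correlated best with its own number. The number 3 libraries were the most alike, and they correlated at -0.461 to -0.104 with libraries of other numbers in the other genotype. The causes of these differences were not tested. Introns of few counts limit the intron results, since only 54 of 127 could be tested.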
